A study of Mus musculus with 13 samples.

Results

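The genes described here encode the thin filament, titin, the M-band and the Z-disc of the cardiac sarcomere, without the myosin chains. They were chosen by name as a list of 35 symbols covering troponins, tropomyosins, actins, titin and nebulin relatives, and proteins that bind or build the Z-disc and M-band. They are 34 of the 24061 gene symbols in each count file, since 1 listed symbol, Capzab, is not among those symbols. Their transcripts were counted in 13 hearts, each from a male mouse of the C57BL/6N strain at 13 weeks of age on chow, and each gave 1 poly(A) library. E3A stands for a knock-in at Cpt1b that alters CPT1B, the muscle enzyme that starts fatty acid entry into mitochondria, so that its inhibitor malonyl-CoA acts on it less, and the study asked what follows from it in the heart. The groups were WT/WT (4 hearts, both alleles wild type), WT/E3A (4 hearts, heterozygous) and E3A/E3A (5 hearts, homozygous). The labels give no treatment, and name the tissue as heart without saying which chamber. P-values here measure the spread between these hearts.

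In a sarcomere, actin thin filaments are anchored at the Z-disc and slide past myosin thick filaments, which are held together at the M-band, while titin spans from the Z-disc to the M-band as a spring. Calcium bound by troponin C moves troponin and tropomyosin on the thin filament and so lets myosin reach actin. Proteins of the Z-disc also sense stretch and hold signalling molecules, and in the heart many of these genes are known for mutations that cause cardiomyopathy.

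In the labels 4 of the 13 libraries carry a remark that each may be an outlier, and these are replicate 1 of WT/WT, replicate 1 of WT/E3A, and replicates 1 and 2 of E3A/E3A. They are called the noted libraries here, and 9 libraries, 3 per genotype, carry no such note. The coding starts of 4 of the genes are printed first because base composition moved with the note in the values that follow. Each line holds coding bases 1 to 120, 5′ to 3′ and in the DNA alphabet, with every G and C in capitals, from the GENCODE transcripts of GRCm38. Tcap (chromosome 11, 98383811 to 98384953, plus strand) and Tnni3 (chromosome 7, 4518305 to 4524229, minus strand) were higher in the noted libraries. Nexn (chromosome 3, 152236982 to 152266350, minus strand) and Nebl (chromosome 2, 17343909 to 17731464, minus strand) were lower there.
Tcap: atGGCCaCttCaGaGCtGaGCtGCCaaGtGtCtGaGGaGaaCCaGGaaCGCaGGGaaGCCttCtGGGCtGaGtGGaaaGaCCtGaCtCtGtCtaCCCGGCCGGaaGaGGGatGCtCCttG
Tnni3: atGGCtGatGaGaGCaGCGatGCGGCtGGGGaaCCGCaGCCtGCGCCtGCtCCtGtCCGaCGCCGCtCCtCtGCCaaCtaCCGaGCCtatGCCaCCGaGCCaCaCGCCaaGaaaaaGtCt
Nexn: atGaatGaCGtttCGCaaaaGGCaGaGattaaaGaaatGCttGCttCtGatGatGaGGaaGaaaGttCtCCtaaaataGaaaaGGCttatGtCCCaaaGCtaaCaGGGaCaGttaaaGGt
Nebl: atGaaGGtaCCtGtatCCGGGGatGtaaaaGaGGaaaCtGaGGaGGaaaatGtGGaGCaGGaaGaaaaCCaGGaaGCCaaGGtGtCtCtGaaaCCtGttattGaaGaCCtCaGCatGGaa
G and C made up 58.3% of the bases shown for Tcap and 63.3% of those for Tnni3. In Nexn the share was 38.3% and in Nebl 45.8%. Over the whole coding sequence the shares were 63.9% in Tcap (501 bases), 56.1% in Tnni3 (633 bases), 39.9% in Nexn (1821 bases) and 44.2% in Nebl (3042 bases).

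Depth ranged from 20082284 to 52602883 counted reads per library, and expression is given as CPM, the count of a gene scaled to the depth of its library with TMM factors. Reads of Cpt1b, the gene that carries the change, were 1.58 to 3.00 CPM in WT/WT, 1.82 to 3.20 CPM in WT/E3A and 2.36 to 3.74 CPM in E3A/E3A. These values rested on 53 to 139 reads of Cpt1b a library. How reads that fit several genes were counted is not given, so they may not show the true level of Cpt1b. Gene counts cannot show the substituted residue, so they do not test the genotype labels. The heart label was checked with Myh6, the main ventricular myosin heavy chain of the mouse, which had 35928 to 118015 CPM. Of 9 skeletal muscle markers outside the list, 5 stayed under 1 CPM in every library, and Myh4 did not exceed 0.0293 CPM. Mybpc2, another of them, had 19.9 to 74.1 CPM. The basis of the note was not given in the labels. If the note rested on these same counts, p-values for the noted libraries are too small. In these bulk samples, fewer cells of a type and less RNA per cell cannot be told apart.

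Cardiac actin, troponins and tropomyosin headed the list when levels were set per kb of exon. Over the 9 libraries without a note, Actc1, the cardiac alpha-actin, had a median of 6692 CPM per kb with a range of 6094 to 7273. Tnnt2, the troponin subunit that binds tropomyosin, followed at 6033 CPM per kb with a range of 5529 to 6299, which overlapped that of Actc1. Tnni3, the inhibitory troponin subunit of the adult heart, stood at 3857 CPM per kb. Tnnc1, the calcium sensor of the complex, had 2274 CPM per kb and Tpm1, the main cardiac tropomyosin, 1879 CPM per kb. The range of Tnni3 lay apart from those of Tnnt2 above it and Tnnc1 below it, whereas Tnnc1 at 1937 to 2443 and Tpm1 at 1791 to 2019 overlapped each other. Titin, with a median of 7000.5 CPM, came to 61.6 CPM per kb because its annotated exons add up to 113588 bases. That length is the union of all exons of the gene and exceeds any single transcript, so levels of genes with many alternative exons are understated. At the low end were Tpm2, the beta-tropomyosin, at 9.08 CPM per kb, Neb, the nebulin of skeletal muscle, at 0.426, and Tnni1, the troponin I of slow skeletal muscle and fetal heart, at 0.296. Tnni1 had 6 to 58 reads in a library. In 16 cases a gene's range overlapped that of the next in level, so the order of such neighbours is not fixed by these hearts.

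**Figure D1:**
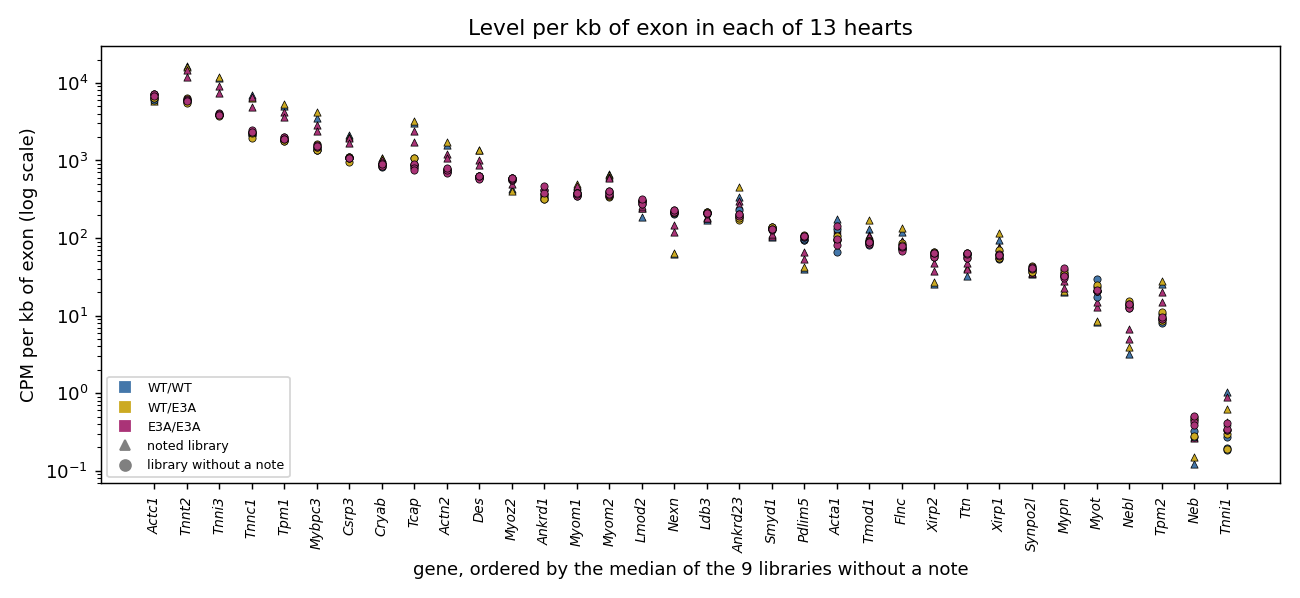
Level of each of the 34 genes in each of 13 hearts, as CPM per kb of exon on a log axis, with genes ordered by the median of the 9 libraries without a note. Colours mark genotypes, triangles the noted libraries and circles the others. Circles of a gene lie close together for most genes, and triangles stand above or below them for most genes. Triangles and circles overlap in Actc1, Ankrd1, Synpo2l, Acta1, Myoz2 and Cryab.

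Most of the genes varied little between the 9 libraries without a note. The coefficient of variation (SD over mean, on CPM) had a median of 6.11% over the 34 genes, against 7.79% over all genes tested. It was under 5% for 13 of them, with the lowest values in Ldb3 (1.96%), a PDZ-LIM protein of the Z-disc, Myoz2 (2.22%), which ties alpha-actinin to calcineurin, and Tnni3 (2.402%). It reached 10% or more for 7. Tnni1 had 28.2%, but counting error alone gave 31.4% at its depth. Acta1, the skeletal alpha-actin, had 23.0% against a counting error of 1.55%. Its values ran from 95.3 CPM in WT/WT replicate 3 to 205 CPM in E3A/E3A replicate 4. Whether hearts or library preparation made this spread cannot be told apart. The others were Neb (22.4%), Myot (16.2%), Ankrd1 (13.5%), Tcap (12.6%) and Tpm2 (10.5%). The 4 sarcomeric and smooth muscle actin genes have similar coding sequences. How reads that fit several of them were counted is not stated in the sources used here. Values of Acta1 and Actc1 are uncertain to that extent.

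None of the 34 genes was called different between genotypes. With all 13 libraries edgeR called 0 of 34 at an adjusted p under 0.05 in E3A/E3A against WT/WT, in WT/E3A against WT/WT and in E3A/E3A against WT/E3A. The share of all 14387 tested genes called was 0.00695%, 0.0% and 0.0% in these comparisons. Before adjustment 0, 0 and 1 of the 34 had a p under 0.05, the last being Ankrd1, a stretch-induced partner of titin. DESeq2 called 0 too, where 1, 0 and 1 had an unadjusted p under 0.05, and limma-voom called 0, where 0, 0 and 1 had one. The median log2 fold change over the 34 genes was 0.03, 0.05 and -0.04, beside -0.02, -0.00 and -0.02 over all genes tested. The noted libraries widen this fit: 1 lies in WT/WT, 1 in WT/E3A and 2 in E3A/E3A, and the median SE over the genes was 0.30, 0.31 and 0.30 on the log2 scale.

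Without the noted libraries the median SE fell to 0.06 in each comparison, and still 0 of 34 were called by edgeR and by DESeq2. Of all 14373 genes tested, 0.271% were called in E3A/E3A against WT/WT, 0.0209% in WT/E3A against WT/WT and 0.0417% in E3A/E3A against WT/E3A. The lowest adjusted p over the 34 was 0.456, 0.585 and 0.525 in that order, and 3, 6 and 3 genes had an unadjusted p under 0.05 (4, 7 and 3 with DESeq2), beside 1105, 914 and 993 of the 14373 genes with edgeR. In E3A/E3A against WT/WT, 33 of 34 log2 differences lay within 0.30 of zero. Leaving out Tnni1, 2 SE around each difference reached from -0.51 to 0.81. Those ends came from Myot (SE 0.19) and Neb (SE 0.26), and the span was narrower for genes with a smaller SE. In genes as variable as these, differences of that size lie within what these 9 hearts could leave uncalled. The comparisons share their groups, so their results are not independent of each other. WT/WT replicates 3 and 4 alone carry the sample title prefix C6, whose meaning was not given. Differences of WT/WT from the other genotypes cannot be fully told apart from that prefix.

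Of the 12 thin filament genes, 11 had a log2 difference above 0 in E3A/E3A against WT/WT hearts of this set, with a median of 0.07 and 0 called. Over all tested genes the median was 0.001. It ran from -0.03 where transcript GC was at most 40% to 0.06 where it was above 60%. In the class of 52 to 56% GC, which holds Tnnt2, Tnni3, Tnni1, Tnnc1, Tpm2 and Actc1, it was 0.01. Actc1 had 10824, 11290.3 and 10476 CPM in the E3A/E3A hearts and 9531, 10032 and 10255 CPM in the WT/WT hearts (CPM scaled over the 9 libraries). The lowest E3A/E3A heart lay just above the highest WT/WT heart, and the log2 difference was 0.13 (SE 0.06, edgeR adjusted p = 0.610). Tnnc1 had 1804, 1867 and 1761 CPM in E3A/E3A and 1648, 1645 and 1715 CPM in WT/WT. Its log2 difference was 0.12 (SE 0.06, adjusted p = 0.704). Tnni1 showed the widest gap, 0.449, 0.465 and 0.557 CPM against 0.365, 0.250 and 0.267 CPM, which rested on 13 to 17 reads a heart in E3A/E3A and 6 to 15 in WT/WT. Its log2 difference of 0.69 had an SE of 0.32 (adjusted p = 0.659). Tnnt2 and Tnni3 were closer, with log2 differences of 0.04 (SE 0.05) and 0.04 (SE 0.04).

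Among the filament scaffolds, Mybpc3, which lies on the thick filament and tunes its contact with actin, had 6609.8, 6937 and 6774 CPM in E3A/E3A hearts and 6116, 6055 and 6366 CPM in WT/WT hearts. The groups did not overlap, and the log2 difference of 0.13 (SE 0.06) had an adjusted p of 0.599. Ttn had 6617, 7410.3 and 7728 CPM against 7173, 7595 and 7417 CPM. These overlapped, at a log2 difference of -0.03 (SE 0.07). Desmin (Des), the intermediate filament that links Z-discs, had a log2 difference of -0.01 (SE 0.05), its 3 E3A/E3A hearts averaging 1954 CPM (SD 113) and its 3 WT/WT hearts 1962 CPM (SD 49.3).

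In the Z-disc group Pdlim5, a PDZ-LIM scaffold that binds alpha-actinin and protein kinase C, gave the lowest p against WT/WT. Its values were 747, 766 and 786 CPM in E3A/E3A, 743, 773 and 798 CPM in WT/E3A, and 701, 699.8 and 713 CPM in WT/WT. Both groups with the allele lay above all 3 WT/WT hearts, which they share as reference. The log2 difference was 0.12 (SE 0.04, adjusted p = 0.456) for E3A/E3A and 0.13 (SE 0.04, adjusted p = 0.688) for WT/E3A. Tcap, which joins the ends of titin at the Z-disc, was highest in WT/E3A replicates 2 and 4, while WT/E3A replicate 3 lay within the E3A/E3A range. It had 1088, 896 and 1091 CPM in WT/E3A, 884, 875 and 832 CPM in WT/WT, and 917, 804 and 764 CPM in E3A/E3A. Its log2 difference was 0.25 (SE 0.08, adjusted p = 0.692) for WT/E3A against WT/WT and -0.31 (SE 0.08, adjusted p = 0.525) for E3A/E3A against WT/E3A.

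Of the titin-linked ankyrin repeat genes, Ankrd1 had 894, 822 and 1002 CPM in E3A/E3A, 764, 802 and 685 CPM in WT/E3A, and 902, 714 and 686 CPM in WT/WT. A single WT/WT heart, replicate 2, reached the E3A/E3A range, and the log2 difference was 0.24 (SE 0.12, adjusted p = 0.717). Its relative Ankrd23 had 489, 482 and 503 CPM in E3A/E3A, 455, 426 and 448 CPM in WT/E3A, and 577, 502 and 469 CPM in WT/WT. The WT/E3A hearts were the lowest, with a log2 difference of -0.22 (SE 0.06, adjusted p = 0.585) against WT/WT. Over the 34 genes, groups did not overlap for 7 in E3A/E3A against WT/WT (7 higher, 0 lower), 5 in WT/E3A against WT/WT (4 higher, 1 lower) and 5 in E3A/E3A against WT/E3A (2 higher, 3 lower). Among all genes tested, in either direction, this held for 14.2%, 12.7% and 11.1%. Shares by direction were not counted over all genes, so the split into higher and lower has no background here. In the same 9 hearts the summed markers of 4 other cell types lay apart, higher in E3A/E3A than in WT/WT. The 5 smooth muscle markers outside the list summed to 455 to 492 CPM against 406 to 426 CPM, and the 7 fibroblast markers to 1216 to 1364 CPM against 1181 to 1202 CPM. Macrophage markers summed to 99.69 to 116 CPM against 93.2 to 99.64 CPM, so these groups nearly met. White adipocyte markers summed to 2.62 to 4.44 CPM against 2.01 to 2.52 CPM, and 3 of these 6 markers stayed under 1 CPM in every library. Atrial markers overlapped, at 253 to 506 CPM against 171 to 286 CPM, but all 6 had a log2 difference above 0, with a median of 0.77 and 0 called. The 9 cardiomyocyte markers outside the list overlapped, at 92815 to 95375 CPM against 88640.2 to 95861 CPM. Summed endothelial, skeletal muscle and blood markers overlapped too. The part of cell makeup in the small differences above was not tested.

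**Figure D2:**
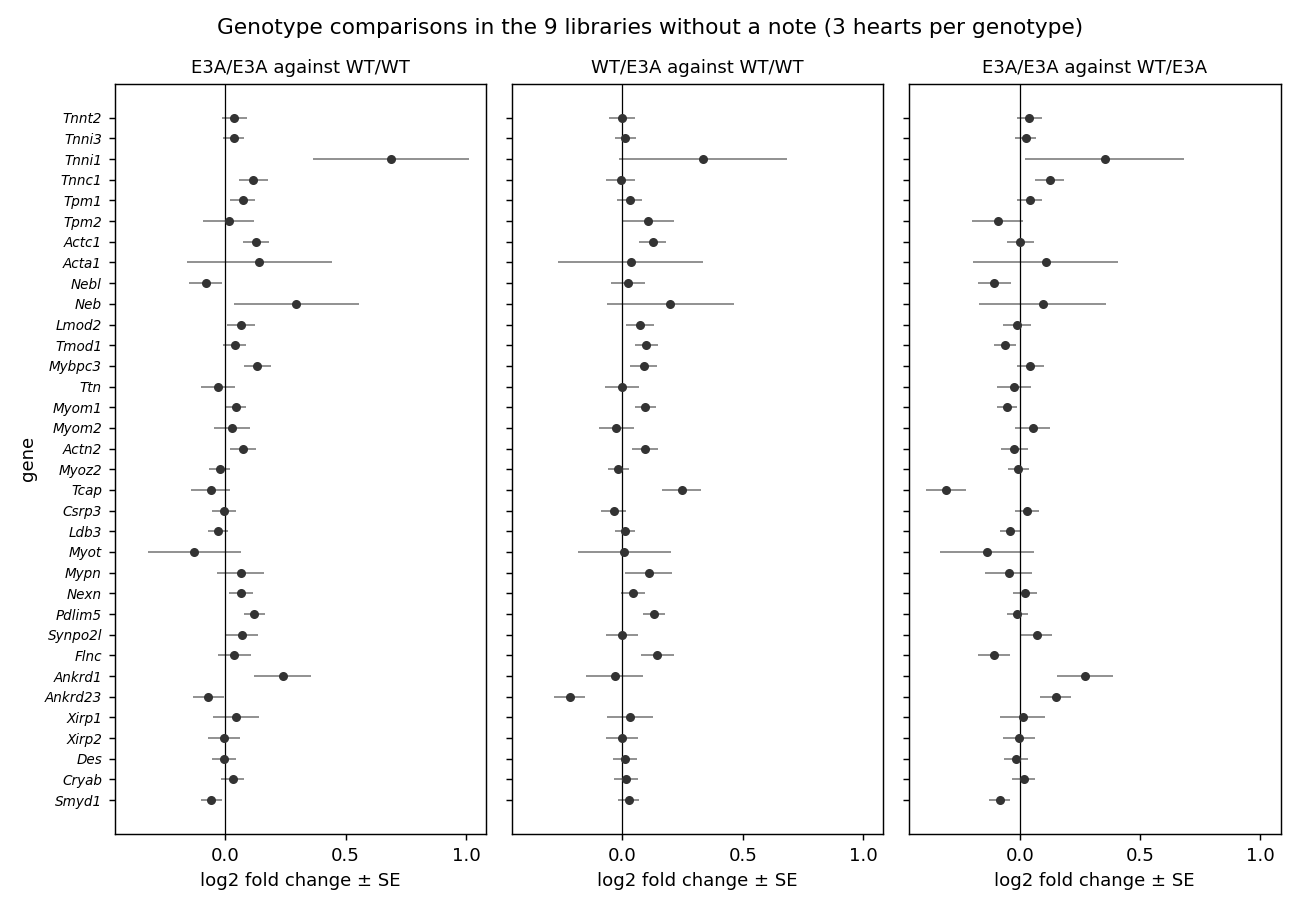
Log2 fold change ± SE (edgeR) of each of the 34 genes in the 3 genotype comparisons, in the 9 libraries without a note, 3 hearts per genotype. Points lie near 0 in all 3 panels, the widest bars belong to Tnni1, Acta1 and Neb, and 0 of 34 genes passed the adjusted p of 0.05 in any panel.

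Ratios between partner genes, which do not depend on scaling between libraries, gave 0 calls between genotypes. The pairs were the fetal and adult troponin I (Tnni1 to Tnni3), skeletal and cardiac actin (Acta1 to Actc1), beta- and alpha-tropomyosin (Tpm2 to Tpm1), the myomesins of the M-band (Myom2 to Myom1) and the ankyrin repeat genes (Ankrd23 to Ankrd1). For every 1000 reads of Tnni3 there were 0.0675 to 0.151 reads of Tnni1 in the 9 libraries. Acta1 gave 10.1 to 21.01 reads per 1000 of Actc1, and Tpm2 gave 2.10 to 3.12 reads per 1000 of Tpm1. Myom2 and Myom1 were near parity, at 807 to 973 reads of Myom2 per 1000 of Myom1, not corrected for length. Exact two-sided permutation tests over 15 comparisons called 0 after Benjamini-Hochberg adjustment with 13 libraries (lowest adjusted p = 0.933) and 0 with 9 (lowest adjusted p = 0.750). With 3 hearts against 3 the smallest p such a test can give is 0.1. No comparison of 3 against 3 could therefore be called. That p was reached by Tnni1 to Tnni3 and by Ankrd23 to Ankrd1 in E3A/E3A against WT/WT. For Tnni1 the 3 E3A/E3A hearts had 0.114, 0.123 and 0.151 reads per 1000 of Tnni3 and the 3 WT/WT hearts 0.0679, 0.0712 and 0.0987, without overlap. For Ankrd23 the 3 E3A/E3A hearts had 502, 548 and 587 reads per 1000 of Ankrd1 and the 3 WT/WT hearts 640, 683 and 703.

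The noted libraries differed from the other 9 in most of these genes. EdgeR, with genotype held as a term, called 31 of 34, 19 higher and 12 lower, where 75.2% of all tested genes were called, 37.0% higher and 38.2% lower. So large a background means that the share called says little about these genes as a group. The median log2 fold change was 0.41 over the 34 and -0.02 over all genes tested. As a share of all counted reads the 34 genes took 8.76 to 9.81% in the 4 noted libraries and 6.61 to 7.01% in the other 9. The noted and other libraries did not overlap for 17 genes that were higher and 11 that were lower, beside 25.9% and 27.1% of all genes tested. Scaling by total counts alone moved the median of all genes to -0.31. Under that scaling 16 of the 34 were called higher and 15 lower, and over all genes 3324 were called higher and 7566 lower, against 5320 and 5500 with TMM. The sample titles carry prefixes (C2, C3, C4 and C6) whose meaning was not given. C2 holds noted libraries only, and C3 and C6 none, so only within C4 could WT/E3A replicate 1 be set against 2 unnoted hearts of its genotype, where all 31 called genes differed in the same direction. With the prefix as a block the note likewise rests on that 1 noted library. There 32 of the 34 kept their sign, and the median log2 fold change was 0.34. Tnni1 (1.13), Acta1 (0.16), Lmod2 (-0.27) and Ldb3 (-0.19) did not hold their calls with it.

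**Figure D3:**
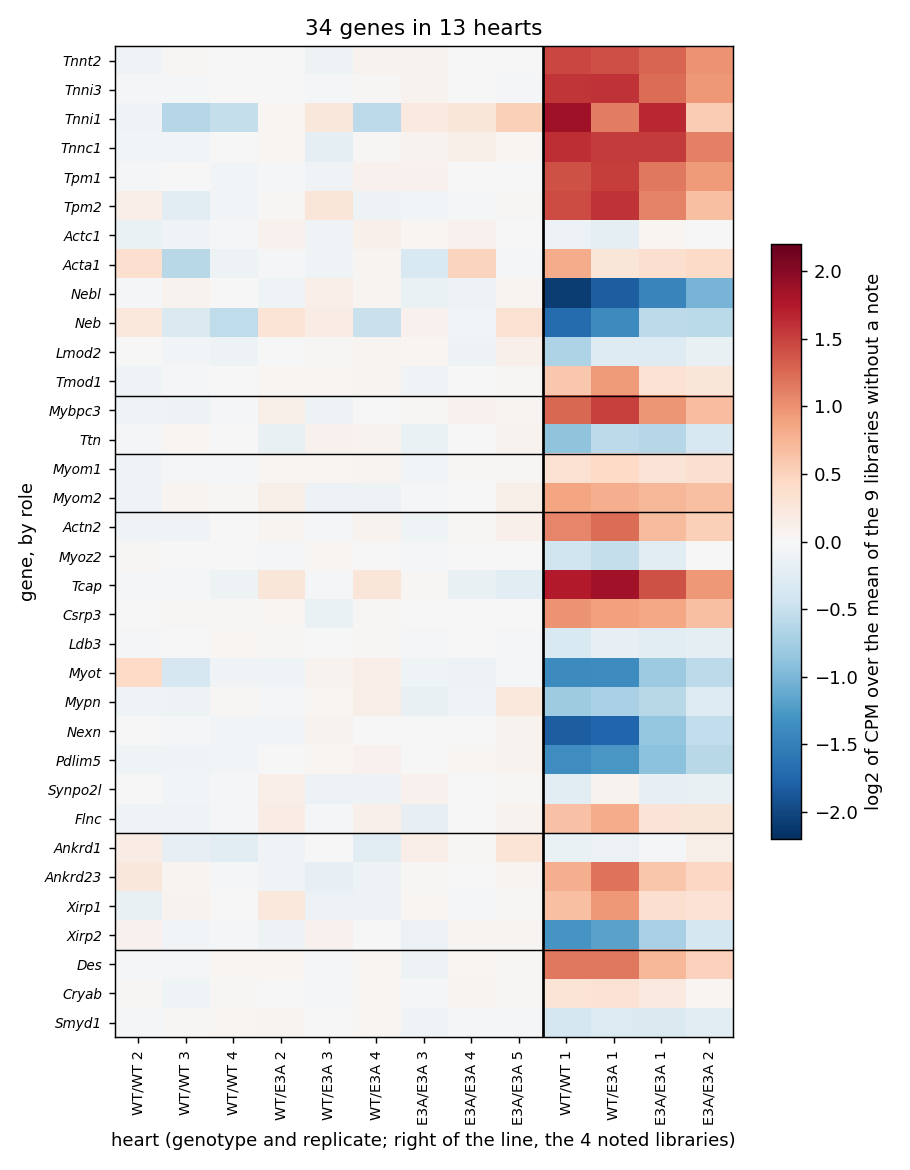
Log2 of the CPM of 34 genes in each of 13 hearts over the mean of the 9 libraries without a note, with rows grouped by role (thin filament, thick filament and titin, M-band, Z-disc, titin-linked and intercalated disc, others). Left of the vertical line the 9 libraries are near 0, and right of it the 4 noted libraries are red for troponins, tropomyosins, Tcap and Mybpc3 and blue for Nebl, Nexn, Pdlim5 and Xirp2.

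Within the thin filament the troponins and tropomyosins were called higher, as was the minor actin Acta1, while the main actin, Actc1, was not called. Tnnt2 had 20962 CPM in WT/WT replicate 1, 20184 in WT/E3A replicate 1, and 18252 and 14937 in E3A/E3A replicates 1 and 2. The other 9 libraries ran from 6984 to 7955 CPM with a median of 7619.7, so the groups were far apart. The log2 fold change was 1.31 (SE 0.07, 2.48-fold, edgeR adjusted p = 4.09e-08). Tnnc1 had 4963, 4669.6, 4721 and 3482 CPM in the same order, against 1397 to 1761 (median 1639), a log2 fold change of 1.46 (SE 0.08). Tnni3 was 10505, 10710.0, 8311 and 6827 CPM, against 3449 to 3722 (median 3517), a log2 fold change of 1.37 (SE 0.08). The 3 subunits of the adult complex thus moved by similar amounts, with E3A/E3A replicate 2 the closest to the unnoted hearts in each. Tpm1 had 23762, 25695, 20005 and 17298 CPM against 8561 to 9649 (median 8980.0), a log2 fold change of 1.28 (SE 0.08). Its exons lie close to the average in base composition, at 49.7% GC. The rarer Tpm2 and Tnni1 rose as well, by 1.26 (SE 0.11) and 1.41 (SE 0.25) on the log2 scale.

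Actc1, the partner of these proteins in the filament, had 9127, 8701, 10281 and 10047 CPM in the noted libraries and 8977 to 10713 CPM (median 9857) in the rest. The groups overlapped and the log2 fold change was -0.08 (SE 0.06, adjusted p = 0.212). It was called lower with offsets for GC (-0.24) and length (-0.31). With total counts, which moved the median of all genes to -0.31, it was -0.36. Reads of Tnnt2 thus exceeded those of Actc1 in the 4 noted libraries and stayed below them in the 9 others. Acta1 was 257, 175, 186 and 196 CPM against 95.3 to 205 (median 141), which overlap. Its log2 fold change of 0.47 (SE 0.17, adjusted p = 0.0204) fell to 0.30 (adjusted p = 0.180) without WT/WT replicate 1, had an adjusted p of 0.0586 without E3A/E3A replicate 2, and turned to -0.05 with the GC offset.

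Nebl, a nebulin relative at the Z-disc end of the thin filament, was the most lowered of the 34. It had 33.3, 40.5, 51.8 and 70.1 CPM in the noted libraries and 128 to 158 CPM (median 141) in the rest, a log2 fold change of -1.59 (SE 0.15, adjusted p = 6.13e-07). Every noted library lay under every other library. Neb was lower by a log2 fold change of -1.10 (SE 0.20), on 106 to 491 reads a library. The proteins at the pointed end of the filament went apart: Tmod1, which caps it, rose (0.56, SE 0.08), and Lmod2, which lengthens it, fell (-0.36, SE 0.07). Tmod1 exons overlap those of Tstd2 on the opposite strand, and without known strand settings their reads cannot be told apart. In all, 8 of 12 measured thin filament genes were called higher, 3 lower and 1 neither, beside 37.0% higher and 38.2% lower over all genes.

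Titin and its ligands did not move as a unit. Ttn had 3735, 4667, 4484 and 5397 CPM in the noted libraries against 6216 to 7368 CPM (median 7000.5) in the rest. The ranges were separate, at a log2 fold change of -0.61 (SE 0.08, 0.653-fold), but with a length offset the call was lost (-0.04, adjusted p = 0.368). Tcap, bound to the Z-disc end of titin, went the other way, with 2868, 3089, 2267 and 1654 CPM against 719 to 1029 CPM (median 833). Its log2 fold change of 1.57 (SE 0.10, 2.96-fold) was the highest of the 34. Mybpc3, which binds titin and myosin, had 14778, 17318, 11962 and 9879 CPM against 5689 to 6737 CPM (median 6164), a log2 fold change of 1.14 (SE 0.10). At the M-band end of titin the myomesins Myom2 (0.77, SE 0.06) and Myom1 (0.35, SE 0.04), which cross-link thick filaments, were both higher, and reads of Myom2 exceeded those of Myom1 in the noted libraries (1124 to 1305 per 1000). Myom1 exons overlap those of Myl12a on the opposite strand.

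**Figure D4:**
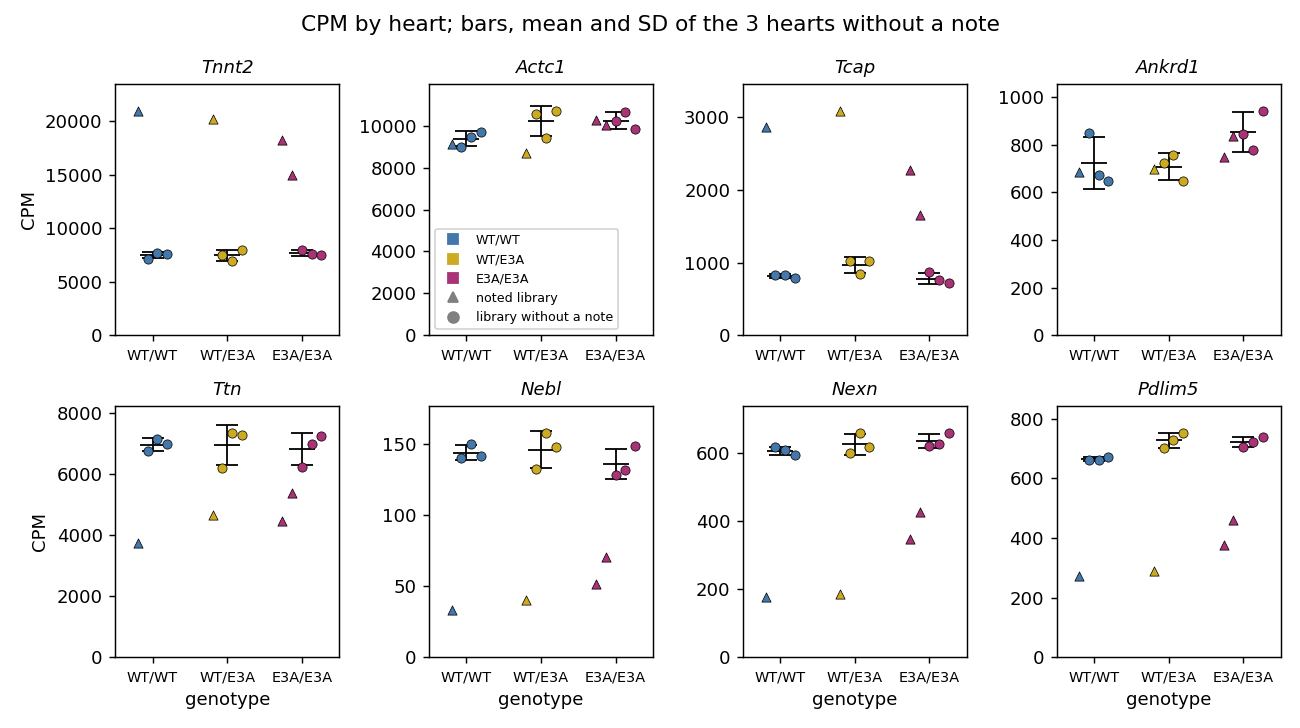
CPM by heart for 8 genes, with genotype on the horizontal axis, triangles for noted libraries, circles for the others, and bars for the mean and SD of the 3 unnoted hearts of each genotype. Triangles lie above the circles for Tnnt2 and Tcap, among them for Actc1 and Ankrd1, and below them for Ttn, Nebl, Nexn and Pdlim5, with E3A/E3A replicate 2 nearest to the circles in the last 4 and in Tnnt2 and Tcap.

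Of the 11 Z-disc genes 4 were called higher, 6 lower and 1 neither, beside 37.0% and 38.2% of all genes. Besides Tcap the higher ones were Actn2, the alpha-actinin that cross-links actin at the Z-disc (0.92, SE 0.09), Csrp3, the muscle LIM protein (0.86, SE 0.06), and Flnc, the actin cross-linker filamin C (0.54, SE 0.08, but -0.07 with the GC offset). Actn2 had 4712, 5251, 3657 and 3221 CPM against 2105 to 2417 CPM (median 2239). Nexn, an actin-binding protein of the Z-disc, had 178, 186, 347 and 426 CPM against 595 to 661 CPM (median 620). The WT/WT and WT/E3A noted libraries were lowest and the E3A/E3A libraries came in between, and the log2 fold change was -1.27 (SE 0.16). Pdlim5 showed the same order, with 272, 289.5, 376 and 460.2 CPM against 659.7 to 753 CPM (median 705), a log2 fold change of -1.07 (SE 0.09). Myot, an actin-bundling Z-disc protein, fell by 1.04 on the log2 scale (SE 0.17), and Mypn, the titin- and actinin-binding myopalladin, by 0.61 (SE 0.09). Myoz2 (-0.31, SE 0.07) and Ldb3 (-0.24, SE 0.04) moved least among the lower ones. Synpo2l, a Z-disc protein of the synaptopodin family, was not called (-0.12, SE 0.07, adjusted p = 0.111), but without WT/E3A replicate 1 it was, at -0.21 (adjusted p = 0.0130). It was also called lower with the GC offset (-0.62), was -0.41 with total counts, where the median of all genes was -0.31, and turned to 0.15, not called, with the prefix as a block.

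The related pairs among the stress and intercalated disc genes diverged. Ankrd23 had 796, 1048, 692 and 624 CPM in the noted libraries against 401 to 544 CPM (median 455), a log2 fold change of 0.81 (SE 0.11). Ankrd1 was 687, 697, 749 and 835 CPM against 646 to 943 CPM (median 755), with overlap and a log2 fold change of -0.08 (SE 0.08, adjusted p = 0.402). That became -0.36 with total counts, near the -0.31 of all genes, and -0.21 with the length offset, both called, but 0.11 with the GC offset and 0.02 with the prefix block, not called. The noted libraries had 748 to 1505 reads of Ankrd23 per 1000 of Ankrd1 and the rest 502 to 703. Of the Xin-repeat actin-binding proteins of the intercalated disc, Xirp1 rose (0.60, SE 0.10) and Xirp2 fell (-0.91, SE 0.12). With the GC offset these were 0.07, not called, and -0.16. Des was higher by 0.93 (SE 0.08), with 4129, 4130.3, 3066 and 2619 CPM against 1722 to 1916 CPM (median 1889). Smyd1, a methyltransferase needed for myofibril assembly, was lower (-0.31, SE 0.05). Cryab, the small heat shock protein that protects desmin and titin, was called higher (0.23, SE 0.05), but turned to -0.06 with total counts (all genes -0.31), -0.11 with the GC offset and -0.09 with a length offset. Reads of Cryab, Des and Tnni3 can include those of the overlapping Hspb2, Gm15179 and Dnaaf3.

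The log2 fold change correlated with the base composition of the transcripts, with exceptions such as Tpm1 and Mypn. The 19 genes called higher had a median transcript GC content of 55.3% (49.7 to 61.3%) and the 12 called lower one of 47.2% (39.6 to 53.5%), beside 50.3% over all genes tested. By whole transcript Tcap, at 61.3%, was the richest of the 34 and Nexn, at 39.6%, the poorest. Over all tested genes the median log2 fold change was -1.22 where GC was at most 40% and 0.75 where it was above 60%, with a steady rise in the classes between. Spearman's rho between GC content and log2 fold change was 0.73 across the 34 genes and 0.69 across 14274 genes, all measured in the same 13 libraries. It is a description across genes, which are not independent. Length moved with the note as well: the class median was 0.37 for transcripts up to 1000 bases and -0.38 above 8000 bases. For length, rho was -0.54 across the 34 genes and -0.22 across the 14274 genes. RNA quality values were not among the sources used here, and the part of composition and length in these differences was tested only by the offsets that follow.

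**Figure D5:**
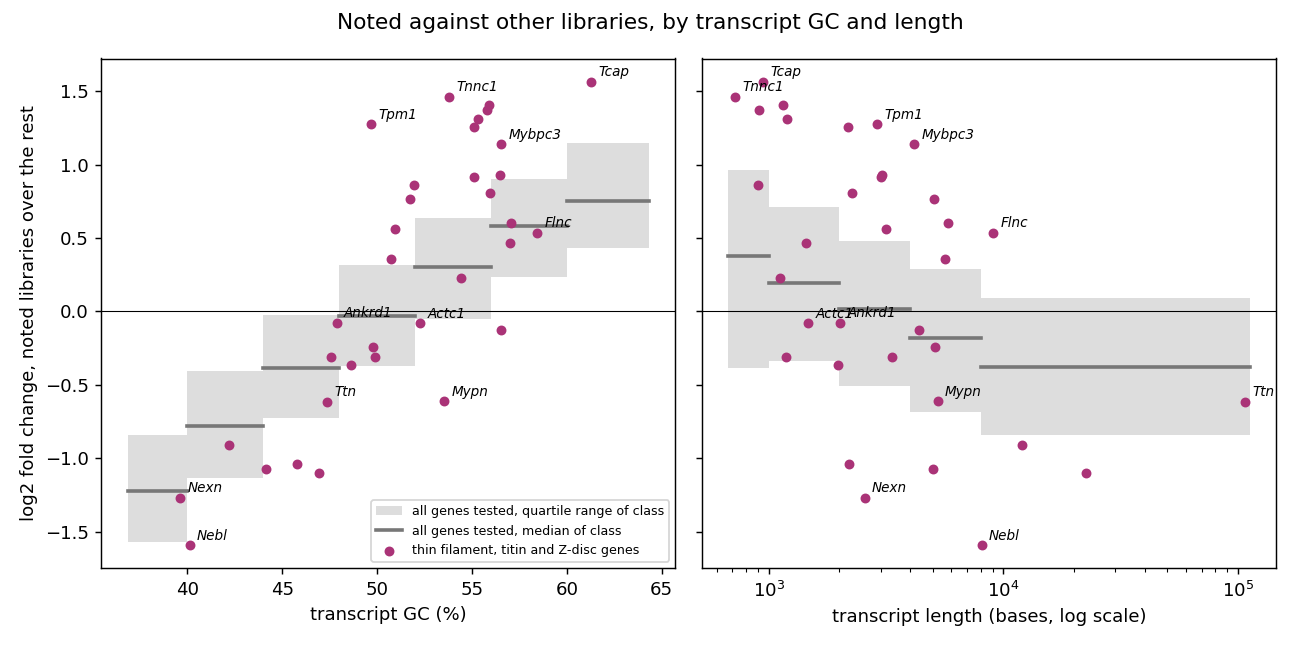
Log2 fold change of the noted libraries over the rest for the 34 genes (points) against transcript GC in percent (left) and transcript length in bases on a log axis (right), with grey bands for the quartile range and grey lines for the median of all tested genes in each class. Points rise with GC from Nexn and Nebl to Tcap. Tpm1, Tnnc1, Mybpc3 and Tcap lie above the grey band of their GC class and Nebl and Mypn below it, while Nexn lies near its grey line.

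With a per-library offset for transcript GC, an alternative chosen after seeing the data, 15 of the 34 were called higher and 14 lower, the median over the 34 was 0.01, and 64.7% of all genes were called. Of the 19 higher 15 were called higher again, and of the 12 lower 11 lower again. With that offset the log2 fold change was 1.31 for Tpm1, 1.18 for Tnnc1, 0.92 for Tnni3, 0.90 for Tnnt2 and 0.82 for Tcap. Nebl came to -0.60 and Mypn to -0.87. Nexn, by contrast, came to -0.23 (adjusted p = 0.0119) and Xirp2 to -0.16 (adjusted p = 0.0366). The GC offset ended the calls of Acta1 (-0.05), Flnc (-0.07), Xirp1 (0.07) and Myoz2 (-0.10), turned Cryab (-0.11) and called Actc1 and Synpo2l lower. With the length offset Ldb3 came to -0.07 (adjusted p = 0.137), not called.

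Markers of some other cells differed with the note too. Their called counts stand beside 37.0% higher and 38.2% lower over all genes tested. The 9 cardiomyocyte markers outside the list summed to 126037 to 177285 CPM in the noted libraries and 88640.2 to 99351 CPM in the rest, of which Myh6 was the most abundant, but only 3 of the 9 were called higher and 3 lower. Fibroblast markers summed to 1833 to 4362 CPM against 1181 to 1364 CPM, with 4 of 7 called higher and 3 lower. Endothelial markers gave 1727 to 2096 CPM against 1385 to 1751 CPM, which overlap, with 4 of 7 called higher and 2 lower. Smooth muscle markers gave 598 to 783 CPM against 406 to 492 CPM, with 2 of 5 called higher and 1 lower. Atrial markers overlapped, at 456 to 705 CPM against 171 to 506 CPM, and macrophage markers had like ranges, 93.2 to 114 CPM against 93.2 to 116 CPM. Skeletal muscle markers summed to 46.5 to 78.6 CPM against 22.2 to 29.4 CPM, most of it Mybpc2, while Tnnc2 reached at most 0.401 CPM. All 4 of these markers that were tested were called higher, with a median log2 fold change of 1.20. The globin genes Hba-a1, Hbb-bs and Hbb-bt were listed at 0 in all libraries. Alas2, the other blood marker, had 9.98 to 17.8 CPM against 7.22 to 16.6 CPM, so the zeros do not show that blood was absent. The part of cell makeup in the differences above was not tested.

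The size of the difference varied between the noted libraries. It was largest in WT/WT replicate 1 for 17 genes and in WT/E3A replicate 1 for 15, each set against the 3 unnoted hearts of its genotype, and smallest in E3A/E3A replicate 2 for 28. The sign was the same in all 4 noted libraries for 31 genes, the exceptions being Actc1, Myoz2 and Synpo2l. An interaction test of note and genotype called 14 of the 34, where 22.5% of all genes were called, with the lowest p in Nexn (edgeR adjusted p = 0.000123). For Nexn the log2 difference from its own genotype was -1.78 in WT/WT replicate 1, -1.75 in WT/E3A replicate 1, and -0.88 and -0.58 in replicates 1 and 2 of E3A/E3A. WT/WT and WT/E3A each hold a single noted library, so library and genotype cannot be told apart in this test.

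Other genes of the same structures were taken from lists written beside the members. Of 60 further thin filament, Z-disc, M-band, costamere and intercalated disc genes tested in the 9 libraries, edgeR called 0 in each genotype comparison, with 10, 9 and 6 at an unadjusted p under 0.05, beside 1105, 914 and 993 of all 14373 genes. In the noted libraries 25 of 61 were called higher and 19 lower, with a median log2 fold change of 0.08, beside 37.0% and 38.2% of all genes, and the chaperone and regulator counts that follow stand against the same shares. Tnnt1, the slow skeletal troponin T, rose by 2.12 (SE 0.13) on the log2 scale, with a mean of 58.5 CPM (SD 15.2) in the 4 noted libraries against 13.5 CPM (SD 1.69) in the other 9. Obsl1, a cytoskeletal linker that binds titin and myomesin, rose by 1.49 (SE 0.12). The actin-capping subunits Capza1 (-2.08, SE 0.16) and Capza2 (-1.52, SE 0.18) and the actin-severing Cfl2 (-1.99, SE 0.21) fell. At the cell junctions Cdh2, the N-cadherin of the intercalated disc, fell by 0.94 (SE 0.08). Of 16 sarcomere chaperone and turnover genes 6 were called higher and 5 lower, among them the myosin chaperone Unc45b (0.87, SE 0.07) and the small heat shock protein Hspb7 (-0.70, SE 0.09). Of 18 regulators of sarcomere genes 5 were called higher and 12 lower, among them the cardiac factors Nkx2-5 (0.86, SE 0.13) and Tbx20 (-1.53, SE 0.13), and the splicing regulators Mbnl1 (-1.72, SE 0.14) and Rbm24 (-0.93, SE 0.08).

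The promoters of the genes were searched for letters of known muscle elements, because troponin, tropomyosin and Mybpc3 transcripts moved together. RefSeq promoters (GRCm38.p6), 250 bases before to 50 after a start site, were at hand for 27 of the 34 genes, 38 promoters in all. Each element was searched on both strands. CATTCC, the core of the M-CAT element bound by TEAD factors, stood in 34.2% of the 38 and in 14.7% of all 32851 promoters in the table. The CArG box bound by serum response factor stood in 15.8% against 1.63%, and the MEF2 site in 13.2% against 0.557%. The letters AGATAA, which GATA factors can bind, were found in 15.8% against 11.2%. The core promoter element TATAAA was found in 13.2% against 13.6%. A MEF2 site can hold TATAAA within it. The 150 bases before the start follow for 3 genes that were higher in the noted libraries and for Ttn, which was lower, in GRCm38.p6 and 5′ to 3′ along the gene, with matches in capitals. They are Tnnt2 at chr1:135836184-135836333 on the plus strand, Tnnc1 at chr14:31208162-31208311 on the plus strand, Mybpc3 at chr2:91117994-91118143 on the plus strand and Ttn at chr2:76982548-76982697 on the minus strand.
Tnnt2: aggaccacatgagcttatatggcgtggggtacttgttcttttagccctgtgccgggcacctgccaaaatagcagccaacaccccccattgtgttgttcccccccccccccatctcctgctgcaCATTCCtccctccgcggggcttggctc
Tnnc1: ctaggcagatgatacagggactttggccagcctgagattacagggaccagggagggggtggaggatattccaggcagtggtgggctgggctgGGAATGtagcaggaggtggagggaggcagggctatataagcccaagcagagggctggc
Mybpc3: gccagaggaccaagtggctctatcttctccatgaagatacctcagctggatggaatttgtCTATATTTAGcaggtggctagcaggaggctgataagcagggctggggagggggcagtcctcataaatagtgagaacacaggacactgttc
Ttn: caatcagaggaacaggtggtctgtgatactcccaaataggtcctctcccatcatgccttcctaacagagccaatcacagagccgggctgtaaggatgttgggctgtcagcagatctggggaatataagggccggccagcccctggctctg
The M-CAT core lay 27 to 22 bases before the start in Tnnt2 and, on the other strand, 58 to 53 bases before it in Tnnc1. A MEF2 site lay 90 to 81 bases before the start of Mybpc3. The 150 bases printed for Ttn held none of the 5 elements, but the full window searched for Ttn held both CATTCC and a MEF2 site, outside the bases printed. These are matches of letters and not measured binding, and the same elements occurred in genes that rose, fell or were not called.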

How the data were processed

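Poly(A) RNA of 13 mouse hearts was sequenced, 1 library each. The deposited values are counts of reads per gene symbol, made with STAR 2.4.0 and featureCounts 1.4.4 on mm10, per the submitters' processing notes; strand and multi-mapping settings are not given in the sources used here. From them edgeR 4.0.16 (R 4.3.3) gave quasi-likelihood tests with TMM factors and filterByExpr, fitted over all genes and adjusted by Benjamini-Hochberg, called at an adjusted p under 0.05. Depth was 20082284 to 52602883 counts per library. Intervals and errors of counting cover counting error only, as the reads carry no molecular identifiers. Genotypes were compared in 13 and in 9 libraries, and noted libraries with genotype as a term. Ratios of partner genes (0.5 reads added) had exact permutation tests. Alternatives were DESeq2 1.42.0, limma-voom (limma 3.58.1), other scalings, no low-count filter, the title prefix as a block and each library left out. Offsets for transcript GC and length were chosen after seeing the data. The fits were tested on simulated data with planted differences larger than the genotype differences of the members. That test therefore does not show whether small differences would be called. Members and lists were chosen with earlier results of these data known. All members are accounted for; full values go to called members, those with the largest difference per role and partner genes, and at most the 3 genes of lowest p per direction are named from another list, plus defining markers. Replicate numbers follow accession order. Transcript lengths and GC are from GENCODE (GRCm38), promoters from RefSeq (GRCm38.p6). 1 gene of the other lists is not reported here.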

Additional observations from a re-analysis of the deposited data

Results flagged for a closer look

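Hearts of a genotype group were set against each other gene by gene, with a gap to the nearest heart large against the group's range (Dixon's 95% critical value). Chance alone flags about 1 in 20 groups. This gave 41 values, all from noted libraries and none from E3A/E3A replicate 2. E3A/E3A holds 2 noted libraries, and where both moved the same way each shortens the gap of the other. The rule can then miss both, so numbers of flags cannot be compared between genotypes. In the WT/WT group of 4 hearts, replicate 1 stood apart from all other hearts of its genotype in 22 values, of which 1 is a ratio. Its CPM were Tnnt2 20962, Tnni3 10505, Tnni1 1.33, Tnnc1 4963, Tpm1 23762 and Tpm2 60.3. Further CPM of that heart were Nebl 33.3, Tmod1 417, Mybpc3 14778, Ttn 3735, Myom1 2629 and Myom2 3430.3. Further CPM of that heart were Actn2 4712, Myoz2 509, Tcap 2868, Csrp3 1988, Nexn 178 and Pdlim5 272. Further CPM of that heart were Flnc 1073, Xirp2 303 and Des 4129. It had 1159 reads of Ankrd23 per 1000 of Ankrd1. In the WT/E3A group of 4 hearts, replicate 1 stood apart from all other hearts of its genotype in 17 values, of which 1 is a ratio. Its CPM were Tnnt2 20184, Tnni3 10710.0, Tnnc1 4669.6, Tpm1 25695, Tpm2 67.0 and Lmod2 479.6. Further CPM of that heart were Tmod1 534, Mybpc3 17318, Myom1 2828, Actn2 5251, Tcap 3089 and Csrp3 1869. Further CPM of that heart were Nexn 186, Pdlim5 289.5, Ankrd23 1048 and Des 4130.3. It had 1505 reads of Ankrd23 per 1000 of Ankrd1. In the E3A/E3A group of 5 hearts, replicate 1 stood apart from all other hearts of its genotype in 2 values. Its CPM were Tnni1 1.15 and Myoz2 587.

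EdgeR's test of the interaction of note and genotype called 14 of the 34 genes, beside 22.5% of all genes tested. The adjusted p was Tnni3 0.00605, Tpm1 0.00958, Nebl 0.00521, Tmod1 0.0018, Mybpc3 0.00331, Actn2 0.00364 and Myoz2 0.0191. For the others it was Nexn 0.000123, Pdlim5 0.00668, Flnc 0.032, Ankrd23 0.00168, Xirp1 0.0279, Xirp2 0.00452 and Des 0.00511. With 1 noted library in WT/WT and 1 in WT/E3A, library and genotype cannot be told apart.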

How the results depend on the processing

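The 17 counts of members and of partner ratios called were each taken again under the alternatives. They stayed within 1.5 times their value in 122 pairs of a count and an alternative. The same held in 180 pairs of a count and 1 left-out library. The counts by genotype and of ratios were 0, and in 9 libraries the ratio tests could not give a call. The exception among these counts was the interaction of note and genotype, 14 members called, which was 9 with the GC offset. Of single members, Cryab reversed to -0.061 with total counts, -0.11 with the GC offset and -0.0895 with the length offset, and Acta1 (-0.053) and Flnc (-0.072) reversed with the GC offset. The cause was not tested. In every alternative run 0 members were called by genotype. Over all genes, DESeq2 called 24, 0 and 4 by genotype in 13 libraries against 1, 0 and 0 with edgeR, and 98, 19 and 38 in 9 libraries against 39, 3 and 6. The prefix block gave 10, 0 and 2 there, and no filter 54, 5 and 10. With the note as a term the 13 libraries gave 8, 0 and 1.

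Leaving out 1 library, genes called ranged from 0 to 1, 0 to 0 and 0 to 0 in 13 libraries, and from 8 to 43, 0 to 12 and 1 to 13 in 9. Noted libraries against the rest gave 18 to 19 members higher, 12 to 13 lower, a member median of 0.32 to 0.46 and 9663 to 11022 genes called. The member medians by genotype ranged from -0.039 to 0.17, -0.067 to 0.16 and -0.055 to 0.075 in 13 libraries, each changing sign, and from 0.021 to 0.052, 0.024 to 0.055 and -0.017 to 0.022 in 9, where only the last changed sign. The highest values of the first and second came without WT/WT replicate 1, and the lowest of the second and highest of the third without WT/E3A replicate 1. The median for noted libraries, 0.41, was 0.12 with total counts and 0.0091 with the GC offset. No paired analysis was possible because the labels carry no replicate numbers, and the title prefix was used as a block instead. It is shared across genotypes only in part, since C6 holds only WT/WT replicates 3 and 4. In the 9 libraries WT/WT shares a prefix with another genotype through replicate 2 alone. With 3 hearts a genotype, small differences in single genes, and any in Tnni1 at 6 to 58 reads, are beyond what these counts resolve.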
